A study of Mus musculus with 16 samples.

Results

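Polyamines are small charged molecules that every growing cell makes, and 10 genes of their synthesis, breakdown and control are described here: Amd1, Amd2, Odc1, Smox, Sat1, Srm, Sms, Oaz1, Oaz2 and Azin1. They were taken by gene symbol from the deposited count table of mouse rotator cuff muscle, and 9 of the 10 were analysed here, among 11710 genes. Amd2 was not analysed here, so the sum of Amd1 and Amd2 that was to be shown equals Amd1 alone. Amd1 was chosen because its counts separate operated from unoperated muscle of the MRL strain. Its values in MRL are therefore a description with no test, and the comparisons that use MRL samples are tested for the 8 other genes only. Its counts in BL6 were not used in that choice.

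RNA was sequenced from 16 samples in 4 groups of 4. The groups were unoperated C57BL/6J (BL6), BL6 after surgery, unoperated MRL/MpJ (MRL) and MRL after surgery. Both strains are inbred, and MRL mice are known to close ear punches unusually well. The surgery cut the tendon off a rotator cuff muscle (tenectomy) and severed its nerve supply (denervation), so tendon loss and nerve loss cannot be told apart. The sample labels name the supraspinatus and the series description names the infraspinatus. The controls were unoperated rather than sham-operated, so anaesthesia and the wound itself belong to the surgery effect. Sex, age and the time from surgery to collection are not given in the sources used here. The labels do not say that samples came from separate animals, so p-values measure the spread between these samples, which may in part be technical.

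Polyamine synthesis starts from ornithine and from S-adenosylmethionine. Odc1 (ornithine decarboxylase) makes putrescine, and Amd1 (adenosylmethionine decarboxylase) makes the aminopropyl donor that Srm (spermidine synthase) and Sms (spermine synthase) add to form spermidine and then spermine. Smox (spermine oxidase) turns spermine back into spermidine, and Sat1 (spermidine/spermine acetyltransferase) acetylates both for export or oxidation. Oaz1 and Oaz2 code for antizymes, which bind ornithine decarboxylase, send it to the proteasome and lower polyamine uptake. Azin1 codes for the antizyme inhibitor, an inactive relative of ornithine decarboxylase that sequesters antizyme. In skeletal muscle Odc1 and Amd1 are known as androgen-responsive genes, and Smox is known for falling in several kinds of muscle atrophy.

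Levels are given as CPM (counts per 1000000 counts of a sample, scaled with TMM factors). Total counts per sample ran from 24323862 to 43552964, so 3 counts, the floor used here, equal 0.0689 to 0.123 CPM before TMM scaling. Every count of the 9 genes lay far above that floor, from 232 for Amd1 in an operated BL6 sample to 19855 for Smox in an unoperated BL6 sample. Genes of the muscle fibre (Acta1, Ckm, Myh4, Tnnt3 and Myh1) summed to between 40415 and 135064 CPM in the 16 samples, which bears out the muscle label. Several libraries stood apart from their group. In operated BL6, replicate 2 lay nearest to unoperated muscle, and replicate 4 differed most from the others and held a fibroblast marker sum of 5157 CPM against 748 to 1429 CPM. In operated MRL, replicate 4 differed most, with 11.8% of counts from mitochondrial genes against 20.1 to 24.9% and an endothelial marker sum of 308 CPM against 635 to 784 CPM. Replicate 1 of unoperated MRL had the highest macrophage marker sum of its group. Where leaving out one of these libraries changed a call of a polyamine gene, the value without it is given.

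Several of these genes are controlled at the level of translation, which RNA counts do not measure, and the 3 short sequences below show the known control elements in the mouse transcripts. Amd1 has a short upstream open reading frame ahead of its coding sequence, known for stalling ribosomes when polyamines are plentiful. It starts at base 14 of the transcript, on the minus strand at chr10:40302155-40302175 of GRCm38.p6 (RefSeq), and spans 7 codons with the stop; capitals mark its start and stop codons. The antizyme transcripts hold a stop codon inside the coding sequence that ribosomes pass by a frameshift when polyamines are high; capitals mark the last codon of the first frame and that stop codon. The 27 bases around it were found in 2 of 7 Oaz1 transcripts and 3 of 7 Oaz2 transcripts of GENCODE M21.
Amd1 upstream frame: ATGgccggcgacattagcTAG
Oaz1 frameshift site: cggtggtgcTCCTGAtgtccctcaccc
Oaz2 frameshift site: ctgtggtgcTCCTGAtgcccctcaccc

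Promoters are shown for Amd1 and Smox because their RNA differed most with surgery. The 250 bases before the RefSeq start of Amd1 lie on the minus strand at chr10:40302189-40302438 and those of Smox on the plus strand at chr2:131491612-131491861, both of GRCm38.p6. GENCODE M21 starts the Smox gene at 131491496, so the Smox window lies inside that annotated gene. Capitals mark matches on either strand to GGGCGG, the core of the GC box, and in Amd1 also to the word TATATAA, whose matches on both strands overlap.
Amd1 promoter: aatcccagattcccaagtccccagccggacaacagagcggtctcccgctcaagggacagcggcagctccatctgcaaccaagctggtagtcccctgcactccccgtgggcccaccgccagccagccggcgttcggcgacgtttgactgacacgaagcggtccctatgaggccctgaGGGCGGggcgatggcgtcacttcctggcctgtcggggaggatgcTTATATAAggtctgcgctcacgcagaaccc
Smox promoter: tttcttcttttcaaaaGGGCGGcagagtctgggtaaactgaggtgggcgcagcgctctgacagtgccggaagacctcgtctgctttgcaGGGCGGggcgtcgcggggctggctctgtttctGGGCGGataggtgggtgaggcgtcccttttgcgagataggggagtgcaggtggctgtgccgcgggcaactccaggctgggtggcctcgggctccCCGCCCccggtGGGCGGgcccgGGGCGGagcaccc

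Of the 10 genes, 8 have an entry among the 32851 RefSeq promoters, and 5 words were searched on both strands in their 250 bases before the start. GGGCGG occurs in 32.7% of all promoters and in those of Amd1 (1 match), Odc1 (4), Smox (6), Sat1 (2), Oaz2 (3) and 1 of 2 Sms promoters (3). TATATAA occurs in 3.04% of promoters and here in Amd1, TATAAA in 12.4% and here in none, the E-box CACGTG in 6.02% and here in 1 of 2 Sms promoters, and the cyclic AMP word TGACGTCA in 1.55% and here in none. A match describes the letters of a window and is not a site of binding.

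After surgery in BL6, 7 of the 9 genes changed by edgeR's quasi-likelihood test at an adjusted p under 0.05, 3 higher (Sat1, Srm, Oaz1) and 4 lower (Amd1, Smox, Sms, Azin1). The same call was made for 67.9% of all 11709 genes tested, 35.1% higher and 32.8% lower, so the count for polyamine genes is close to the background. Operated and unoperated samples did not overlap for 4 of the 9, against 56.8% of all genes. After surgery in MRL, 4 of the 8 genes tested changed, with Sat1 higher and Odc1, Smox and Sms lower, where 45% of all genes did (22.3% higher, 22.7% lower). Without Amd1, 3 of the 8 had groups that did not overlap in MRL, against 33.7% of all genes. The median log2 fold change was -0.27 over the 9 genes in BL6 beside 0.04 over all genes, and -0.10 over the 8 in MRL beside 0.01 over all genes. Genes of synthesis and of breakdown were both among those called in each strain.

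**Figure D1:**
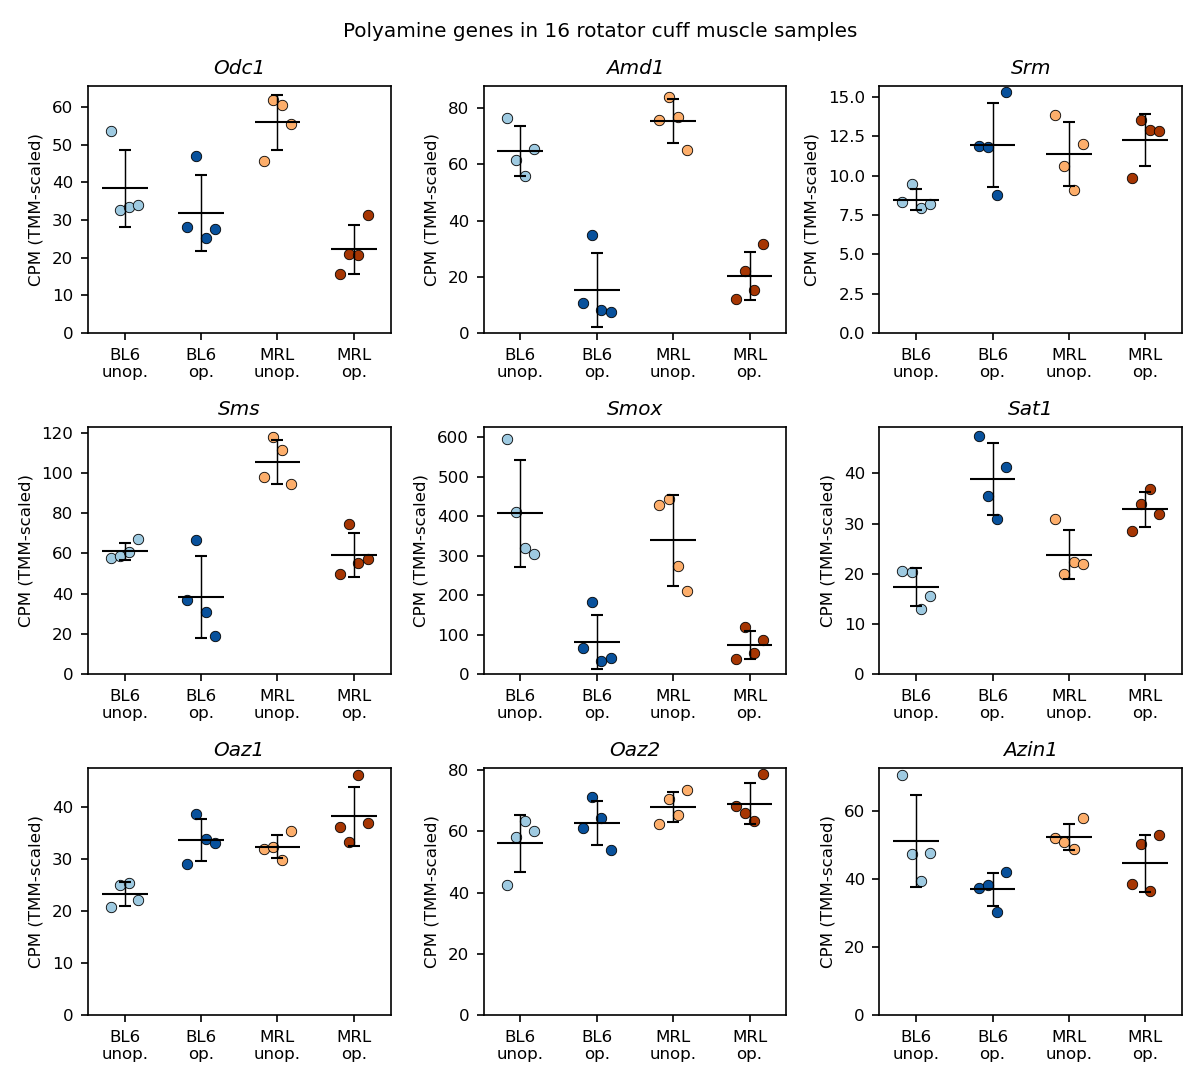
CPM (TMM-scaled, linear axes from 0) of the 9 polyamine genes, 1 panel per gene, with 1 point per sample and the mean of each of the 4 groups of 4. Amd1 and Smox are lower in each operated than in each unoperated sample of their strain, with replicate 2 of operated BL6 the highest of its group, and Oaz2 overlaps between groups.

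Among the synthesis genes, Amd1 (ENSMUSG00000075232, chromosome 10, 40287458 to 40302186, minus strand, GRCm38) differed most. Unoperated BL6 samples held 76.5, 61.6, 55.7 and 65.3 CPM in replicates 1 to 4, and operated BL6 samples 10.7, 34.9, 8.30 and 7.59 CPM. Each operated sample lay below each unoperated one, and replicate 2 lay well above the other operated samples. The mean went from 64.8 ± 8.75 to 15.4 ± 13.1 CPM (SD, n = 4). The log2 fold change was -2.08 (SE 0.41, 4.22-fold lower) at adjusted p = 0.000463 by edgeR's quasi-likelihood test. Of the other genes, 120 had a lower log2 fold change in BL6.

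In MRL, for which it was chosen, Amd1 held 75.6, 83.7, 76.9 and 64.9 CPM in unoperated samples and 12.2, 22.1, 15.4 and 31.7 CPM in operated samples. The means were 75.3 ± 7.78 and 20.3 ± 8.60 CPM (SD, n = 4). On the log2 scale the change was -1.88 (SE 0.40, 3.69-fold lower). All operated samples were below all unoperated ones, which is what the choice used, and 48 genes had a lower log2 fold change in MRL.

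The Amd1 counts are uncertain, because the gene has near-identical copies. Of the 50-base stretches of the Amd1 transcript, 86.1% also occur in Amd2 (chromosome 10, 35708675 to 35711892), which aligns to it at 99.6% identity with 10 mismatches over 3202 positions. How the authors' counting treated reads that fit both is not given in the sources used here, so Amd1 values may hold, share or omit such reads. GENCODE M21 lists 5 processed Amd pseudogenes, and 1 of them was analysed here. This is Amd-ps4 (ENSMUSG00000019836, chromosome 4, 51253025 to 51254027), which aligns to Amd1 at 99.5% identity with 3 mismatches and shares 79.1% of its 50-base stretches with it.

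Amd-ps4 was nearly confined to MRL libraries. Its counts were 1, 1, 0 and 0 in unoperated BL6, 0 in each operated BL6 sample, 154, 280, 212 and 193 in unoperated MRL, and 9, 28, 20 and 114 in operated MRL. BL6 thus stayed under the floor of 3 counts, and within MRL the operated samples were all below the unoperated ones. Over the 4 operated MRL replicates the order, lowest to highest, was that of Amd1 (1, 3, 2, 4). In unoperated MRL the orders by CPM differed, at 1, 4, 3, 2 for Amd-ps4 and 4, 1, 3, 2 for Amd1. Whether the Amd-ps4 counts are reads of the pseudogene or of Amd1 was not tested. With Amd-ps4 added to Amd1, a sum chosen after seeing the data, the log2 fold change was -2.08 in BL6 and -1.91 in MRL.

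Odc1 (ENSMUSG00000011179, chromosome 12, 17544794 to 17551505), the first enzyme of the pathway, fell in MRL. Unoperated MRL samples held 45.8, 62.0, 60.5 and 55.4 CPM, and operated MRL samples 15.7, 21.1, 20.7 and 31.4 CPM, with no overlap. The mean went from 55.9 ± 7.31 to 22.2 ± 6.60 CPM (SD, n = 4). This is a log2 fold change of -1.33 (SE 0.23, 2.51-fold lower) at adjusted p = 0.00124 by edgeR's quasi-likelihood test. In all, 173 genes had a lower value in MRL.

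In BL6 the groups overlapped for Odc1. Unoperated samples held 53.7, 32.6, 33.4 and 33.9 CPM and operated samples 28.1, 47.0, 25.1 and 27.6 CPM, so that 1 high sample in each group set most of the spread. Its fitted log2 fold change was -0.27 with a 95% interval from -0.76 to 0.22 at adjusted p = 0.315 by edgeR's quasi-likelihood test. Without replicate 2 of operated BL6 it was -0.51 and passed, at an adjusted p of 0.0445 by that test. Without replicate 1 of unoperated BL6, the high unoperated sample, it was -0.06 at adjusted p = 0.814. The call in BL6 therefore rests on which of these samples are kept.

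Sms (ENSMUSG00000071708, chromosome X, 157443855 to 157492287), which makes spermine, fell in both strains. In MRL it went from 98.1, 117.9, 111.5 and 94.4 CPM in unoperated samples to 49.9, 74.6, 55.3 and 57.0 CPM in operated ones, with no overlap. The log2 fold change was -0.83 (SE 0.26, 1.78-fold lower) at adjusted p = 0.0182 by edgeR's quasi-likelihood test. In BL6 unoperated samples held 57.6, 59.0, 60.9 and 67.2 CPM and operated ones 36.8, 66.7, 30.7 and 19.0 CPM. Replicate 2 alone lay among the unoperated values, and the log2 fold change was -0.68 (SE 0.26) at adjusted p = 0.0307 by that test.

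Leaving out samples moved the Sms calls. Without replicate 2 of operated BL6 the fall was -1.09, at adjusted p = 0.000202 by edgeR's quasi-likelihood test. The BL6 call was lost on leaving out replicate 3 or 4 of the unoperated or replicate 1, 3 or 4 of the operated group (adjusted p 0.0523 to 0.085 by that test), and in a fit of the BL6 samples alone (0.0636). The MRL call was lost without replicate 1 (0.0541) or 3 (0.0515) of operated MRL.

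Srm (ENSMUSG00000006442, chromosome 4, 148591503 to 148594993), which makes spermidine, rose in BL6. Unoperated samples held 8.35, 9.48, 7.93 and 8.17 CPM and operated samples 11.9, 11.8, 8.77 and 15.3 CPM, overlapping through replicate 3. On the log2 scale the change was 0.50 (SE 0.17, 1.41-fold higher) at adjusted p = 0.0152 by edgeR's quasi-likelihood test, and the call was lost without replicate 4 of the operated group, the highest, at 0.0708. In MRL the means were 11.4 ± 2.05 and 12.3 ± 1.65 CPM (SD, n = 4) at adjusted p = 0.597 by that test. The 4 synthesis genes thus did not share a direction in BL6, with Amd1 and Sms lower and Srm higher.

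Smox (ENSMUSG00000027333, chromosome 2, 131491496 to 131525922), the oxidase that turns spermine into spermidine, had the largest fall of the polyamine genes tested in both strains. Unoperated BL6 samples held 596, 409, 319 and 303 CPM, and operated BL6 samples 65.5, 182, 34.1 and 41.5 CPM. In MRL the values were 428, 444, 273 and 211 CPM in unoperated and 38.8, 119, 54.4 and 85.3 CPM in operated samples. No operated sample reached an unoperated one of its strain.

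In BL6 the Smox mean went from 407 ± 135 to 80.9 ± 69.0 CPM (SD, n = 4). This is a log2 fold change of -2.33 (SE 0.49, 5.04-fold lower) at adjusted p = 0.000797 by edgeR's quasi-likelihood test. The MRL mean went from 339 ± 115 to 74.5 ± 35.6 CPM. Its fitted log2 fold change was -2.19 (SE 0.49, 4.55-fold lower) at adjusted p = 0.0038 by that test. In all, 68 genes had a lower value in BL6 and 27 in MRL. The unoperated samples themselves spread over a wide range, from 303 to 596 CPM in BL6 and from 211 to 444 CPM in MRL.

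Sat1 (ENSMUSG00000025283, chromosome X, 155213132 to 155216449), the acetylating enzyme, went the other way and rose. Unoperated BL6 samples held 20.5, 20.4, 13.1 and 15.5 CPM and operated ones 47.5, 35.6, 30.9 and 41.2 CPM, with no overlap. The mean went from 17.4 ± 3.71 to 38.8 ± 7.19 CPM (SD, n = 4). The log2 fold change was 1.16 (SE 0.18, 2.23-fold higher) at adjusted p = 6.88e-05 by edgeR's quasi-likelihood test. The rise did not hang on replicate 2, and leaving out each sample in turn gave 1.04 to 1.25.

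In MRL, Sat1 held 31.0, 19.96, 22.3 and 21.9 CPM in unoperated and 28.6, 33.9, 37.0 and 32.0 CPM in operated samples. The groups overlapped through replicate 1 of both. On the log2 scale the change was 0.47 (SE 0.17, 1.38-fold higher) at adjusted p = 0.0389 by edgeR's quasi-likelihood test. That call was lost without replicate 2, 3 or 4 of the unoperated or 2 or 3 of the operated group (adjusted p 0.0732 to 0.113 by that test), and under scaling by total counts (0.0816).

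**Figure D2:**
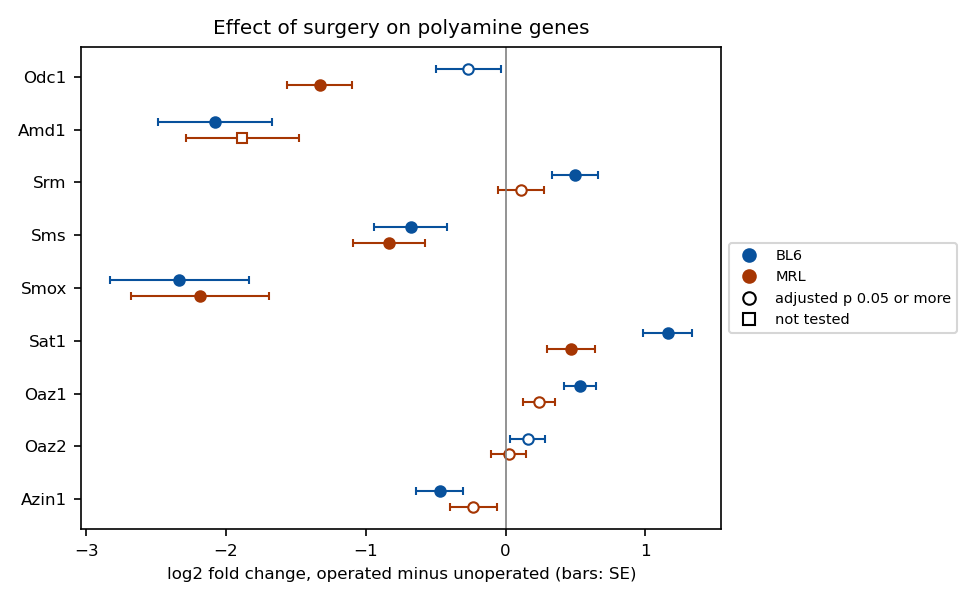
Log2 fold change of each polyamine gene, operated minus unoperated, in BL6 and in MRL (points, bars are SE). Filled points passed an adjusted p of 0.05 by edgeR's quasi-likelihood test, open circles did not, and the open square for Amd1 in MRL was not tested; Amd1 and Smox lie near -2 in both strains, and Odc1 lies at -0.27 in BL6 and -1.33 in MRL.

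Of the genes that control ornithine decarboxylase, Oaz1 (ENSMUSG00000035242, chromosome 10, 80826656 to 80829290) rose in BL6. Unoperated samples held 20.8, 25.1, 25.3 and 22.1 CPM and operated ones 29.1, 38.8, 33.9 and 33.1 CPM, with no overlap. The mean went from 23.3 ± 2.24 to 33.7 ± 3.99 CPM (SD, n = 4). This is a log2 fold change of 0.53 (SE 0.12, 1.44-fold higher) at adjusted p = 0.000958 by edgeR's quasi-likelihood test. In MRL the values were 31.9, 32.4, 29.9 and 35.5 CPM in unoperated and 36.3, 33.3, 46.3 and 37.1 CPM in operated samples, which overlapped, and the log2 fold change was 0.24 at adjusted p = 0.1 by that test.

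Oaz2 (ENSMUSG00000040652, chromosome 9, 65668001 to 65690300), the other antizyme, had means of 56.1 ± 9.27 and 62.7 ± 7.199 CPM in unoperated and operated BL6 and of 68.0 ± 4.99 and 69.2 ± 6.84 CPM in MRL (SD, n = 4). The 95% intervals of its log2 fold change were -0.11 to 0.43 in BL6 and -0.24 to 0.29 in MRL, with adjusted p of 0.269 and 0.886 by edgeR's quasi-likelihood test. Scaling by total counts moved the median of all genes in BL6 from 0.04 to 0.18, and on that scale Oaz2 was called higher in BL6, at 0.29 (adjusted p 0.044).

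Azin1 (ENSMUSG00000037458, chromosome 15, 38487427 to 38519266) fell in BL6, with unoperated samples at 70.8, 47.6, 39.4 and 47.7 CPM and operated samples at 37.4, 38.3, 30.4 and 42.1 CPM. The groups overlapped, and replicate 1 was the highest unoperated sample, as it was for Odc1 and Smox. Its fitted log2 fold change was -0.47 (SE 0.17, 1.39-fold lower) at adjusted p = 0.0213 by edgeR's quasi-likelihood test. It lost the call without that sample (-0.28, adjusted p 0.107), without replicate 3 of operated BL6 (0.0692) and under scaling by total counts (0.182). In MRL the means were 52.5 ± 3.89 and 44.7 ± 8.27 CPM (SD, n = 4), at adjusted p = 0.261 by that test.

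The operated samples did not respond alike. Set against the mean log2 CPM of unoperated BL6, operated BL6 replicates 1 to 4 lay at -2.58, -0.88, -2.94 and -3.07 for Amd1 and at -2.58, -1.10, -3.52 and -3.24 for Smox. For Sms they lay at -0.73, 0.13, -0.99 and -1.68, and for Odc1 at -0.42, 0.32, -0.58 and -0.45. Replicate 2 was nearest to unoperated muscle for each of these 4 genes. For Sat1 the values were 1.47, 1.06, 0.85 and 1.27, and for Oaz1 0.32, 0.74, 0.54 and 0.51, where replicate 2 lay within or above the others.

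**Figure D3:**
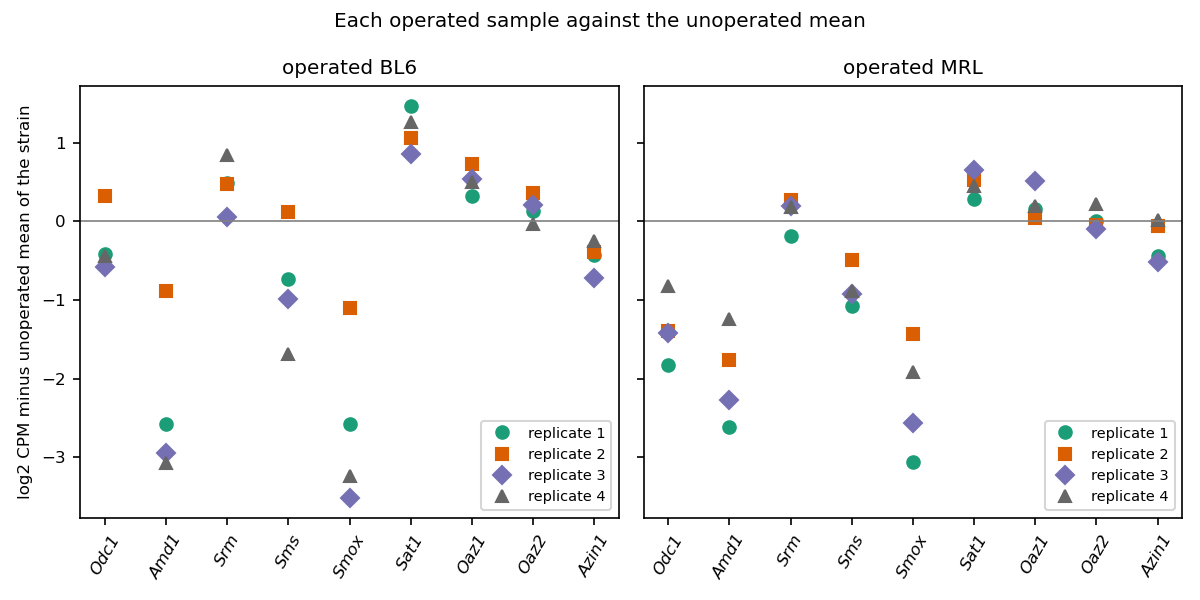
Each operated sample's log2 CPM minus the unoperated mean of its strain, for the 9 polyamine genes (x axis) in BL6 (left) and MRL (right), with 1 symbol per replicate and a line at 0. BL6 replicate 2 lies above the other operated BL6 samples for Amd1, Smox, Odc1 and Sms; in MRL replicate 1 lies lowest for Amd1, Smox, Odc1 and Sms.

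Replicate 2 of operated BL6 also held the highest fibre marker sum of its group, 109337 CPM against 40415 to 74801 CPM in the other operated BL6 samples and 97031 to 135064 CPM in unoperated BL6. Its adipocyte (21.8 CPM), macrophage (20.1 CPM), Schwann cell (135 CPM) and endothelial (600 CPM) marker sums were the lowest of the operated BL6 samples. Without it, the BL6 log2 fold change was -2.87 for Amd1 (adjusted p 5.13e-06) and -3.11 for Smox (3.44e-05) by edgeR's quasi-likelihood test, and 8 of 9 genes were called. Without replicate 4 of operated BL6, Amd1 was at -1.86 (0.00148) and Smox at -2.12 (0.00281) by that test, and 5 of 9 genes were called. The share of all genes called in fits that leave out a sample is not given here. Such counts are therefore not read as particular to the polyamine genes. In operated MRL the order differed: replicate 1 lay lowest for Amd1 (-2.61), Smox (-3.06), Odc1 (-1.82) and Sms (-1.07), and replicate 4 nearest to unoperated for Amd1 (-1.24) and Odc1 (-0.82). Without replicate 4 of operated MRL the MRL log2 fold changes were -2.18 for Amd1, untested, and -2.26 for Smox (adjusted p 0.00414), -1.55 for Odc1 (0.000134) and -0.82 for Sms (0.0281) by that test. Without replicate 1 of unoperated MRL, Sat1 was at 0.63 (0.00977), and the same 4 genes as with all samples were called on leaving out either.

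Mitochondrial genes took 12.2 to 14.2% of counts in unoperated and 17.4 to 23.8% in operated BL6, and 11.0 to 11.6% in unoperated and 11.8 to 24.9% in operated MRL. Markers of several cell types differed with surgery as well, beside the changes of the polyamine genes, and the part of either in these was not tested. The marker counts below stand against 35.1% of all genes higher and 32.8% lower in BL6, and 22.3% higher and 22.7% lower in MRL. In bulk tissue, fewer cells of a type and less RNA per cell cannot be told apart. The fibre markers were lower for 3 of 5 genes in BL6 and 2 of 5 in MRL, and their sum went from 87534 to 99582 CPM down to 54724 to 72366 CPM in MRL. Of 4 adipocyte markers analysed, 4 were higher in each strain; their sum was 7.74 to 14.2 CPM in unoperated and 21.8 to 244 CPM in operated BL6, and 9.74 to 23.5 and 37.6 to 199 CPM in MRL.

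Endothelial markers were higher for 4 of 5 genes in BL6 and 5 of 5 in MRL, with sums of 287 to 375 and 600 to 767 CPM in BL6 and 218 to 301 and 308 to 784 CPM in MRL. Schwann cell markers were higher for 5 of 5 and 4 of 5 genes, with sums of 53.6 to 70.8 and 135 to 334 CPM in BL6 and 38.4 to 83.4 and 63.4 to 228 CPM in MRL. Macrophage and fibroblast markers were each higher for 2 of 5 genes in BL6 and for 0 of 5 in MRL. The macrophage sum was 10.6 to 28.6 and 20.1 to 139 CPM in BL6 and 17.8 to 113 and 29.9 to 55.0 CPM in MRL, where the 113 CPM is replicate 1 of unoperated MRL. The fibroblast sum was 535 to 1287 and 748 to 5157 CPM in BL6 and 1109 to 1907 and 1413 to 2850 CPM in MRL. Of 3 muscle stem cell markers analysed, 3 were lower in BL6 and 2 in MRL, and no erythroid marker was called in a strain. No marker was at 0 in a sample.

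The direct test of a different surgery effect in MRL and BL6 called 0 of the 8 genes tested, where it called 0.248% of all genes. At an unadjusted p under 0.05 there were 2 of the 8, Odc1 and Sat1, and DESeq2 also called 0. The share of all genes at that unadjusted threshold is not given here, so neither this count nor those below show an excess. For Odc1 the difference (MRL effect minus BL6 effect) was -1.06 on the log2 scale, with a 95% interval from -1.76 to -0.37 at adjusted p = 0.179 by edgeR's quasi-likelihood test. For Sat1 it was -0.69, from -1.21 to -0.17, at adjusted p = 0.221 by that test. Odc1, called in MRL and not in BL6, and Srm, Oaz1 and Azin1, called in BL6 and not in MRL, are therefore not shown to respond differently by strain. For Smox the difference was 0.15, with an interval from -1.27 to 1.56, which leaves room for a difference of more than 1 log2 unit either way. For Amd1 it was 0.20 and was not tested.

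Between unoperated muscles of the strains, 1 of the 8 genes tested differed, Oaz1, against 10.4% of all genes. Each unoperated MRL sample (29.9 to 35.5 CPM) lay above each unoperated BL6 sample (20.8 to 25.3 CPM), a log2 difference of 0.48 with an SE of 0.12 at adjusted p = 0.0133 by edgeR's quasi-likelihood test. Without replicate 4 of unoperated MRL the adjusted p was 0.0554. Sms also had groups that did not overlap, as did 25.1% of all genes: 94.4 to 117.9 CPM in MRL and 57.6 to 67.2 CPM in BL6, with a difference of 0.79 at adjusted p = 0.0674 by that test. In the authors' deposited table Sms has 0.96 and a false discovery rate of 0.0171 in this comparison. Its call here depends on the fit, as it passed with DESeq2 (0.029), with scaling by total counts (0.005) and in a fit of these groups alone (0.000284).

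The other 6 genes tested had differences between unoperated strains from -0.26 for Smox to 0.54 for Odc1, with adjusted p of 0.12 or more by edgeR's quasi-likelihood test; 4 of them (Odc1, Sat1, Srm, Oaz2) had an unadjusted p under 0.05. Amd1 held 0.22, untested. After surgery 0 of the 8 differed between strains, against 12.9% of all genes; Sms (0.63) and Odc1 (-0.52) had an unadjusted p under 0.05, and DESeq2 called 0. These 2 depend on single libraries and on the scaling. Sms was called without replicate 2 of operated BL6 (1.04, adjusted p 0.00188) and with total counts (0.78, 0.0146), by edgeR's quasi-likelihood test. Its difference was lowest, at 0.41 (adjusted p 0.22 by that test), without replicate 4 of operated BL6. Odc1 was called without replicate 4 of operated MRL (-0.74, 0.0486). With all samples, the Odc1 mean was higher in unoperated MRL than in unoperated BL6 and lower in operated MRL than in operated BL6, with neither difference passing. The remaining 6 lay between -0.24 for Sat1 and 0.27 for Azin1, and Amd1 at 0.41, untested.

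Per kilobase of exon, Smox had the highest counted level of the 9 genes in unoperated muscle. It held 105 ± 34.6 CPM per kb in BL6 and 87.1 ± 29.6 CPM per kb in MRL (SD, n = 4), and its lowest sample lay above the highest of the next gene, Oaz2, at a mean of 18.8 and 22.8 CPM per kb. Amd1 came after Oaz2 in both strains, at 18.3 and 21.3 CPM per kb, and Srm came last, at 5.30 and 7.13 CPM per kb. After surgery Amd1 had the lowest mean, at 4.34 CPM per kb in BL6 and 5.74 in MRL. Its samples overlapped those of the next gene up, Azin1 in BL6 and Odc1 in MRL. Oaz2 then came first at 20.96 and 23.1 CPM per kb and Smox next at 20.8 and 19.1, with overlapping samples. Copies limit this order. Of the 50-base stretches of Amd1, 87.6% also occur in a copy, and Oaz1, Oaz2 and Sms have processed pseudogenes. How reads shared with copies were counted is not given in the sources used here, so levels and ranks between genes are uncertain.

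Between Amd1 and Srm the unoperated BL6 order of mean CPM per kb was Odc1 (11.3), Sms (10.2), Oaz1 (9.12), Azin1 (8.21) and Sat1 (6.26), and each gene overlapped its neighbour. In unoperated MRL it was Sms (17.6), Odc1 (16.4), Oaz1 (12.7), Sat1 (8.57) and Azin1 (8.39), where Oaz1 lay clear of Sat1. In operated BL6 the genes from the third place down were Sat1 (14.0), Oaz1 (13.2), Odc1 (9.38), Srm (7.48), Sms (6.37) and Azin1 (5.92). In operated MRL they were Oaz1 (14.9), Sat1 (11.9), Sms (9.85), Srm (7.69), Azin1 (7.14) and Odc1 (6.52). By rank of the mean, Sat1, Srm, Oaz1 and Oaz2 stood higher and Amd1, Odc1, Sms and Smox lower in operated muscle of both strains. Azin1 stood lower in BL6 and higher in MRL. Ranks also move with the other genes: the Azin1 mean itself was lower in operated than in unoperated MRL (7.14 against 8.39 CPM per kb).

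Across the 16 samples the log2 CPM of Amd1 correlated with that of Smox at a Pearson r of 0.953, with Sms at 0.831, with Odc1 at 0.780 and with Azin1 at 0.708. It correlated with Oaz2 at -0.02, with Srm at -0.36, with Oaz1 at -0.47 and with Sat1 at -0.73. The samples split into operated and unoperated ones, so the difference between those groups enters each of these values. Among genes of at least 5 CPM outside the polyamine genes, those most like Amd1 were Rhobtb2 (0.982), Atp1b2 (0.981), Slc38a4 (0.979), Slc37a4 (0.977) and Capza2 (0.977). Those most like Smox were Slc38a4 (0.959), Hacd1 (0.955), Npc1 (0.954), Pgm1 (0.953) and Ddah1 (0.950).

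The pathway around these genes was followed with 29 further genes in 6 lists, of which 20 were analysed here. In BL6, 3 of the 20 were higher, 8 lower and 9 not called; in MRL, 0 were higher, 7 lower and 13 not called. The called share was 67.9% of all genes in BL6 (35.1% higher, 32.8% lower) and 45% in MRL (22.3% higher, 22.7% lower), and the counts of the lists below are to be read against it. Of 4 ornithine supply genes 1 was analysed, Oat (ornithine aminotransferase, which links ornithine to glutamate and proline), and it fell in both strains, from a mean of 307 to 127 CPM in BL6 (log2 fold change -1.27, adjusted p 5.85e-05) and from 255 to 134 CPM in MRL (-0.93, 0.00219) by edgeR's quasi-likelihood test. The arginases and Agmat, which feed ornithine or putrescine, were not analysed here, nor were Oaz3 and Azin2, the 2 listed genes of the antizyme system. Of 3 breakdown genes analysed (Paox, Sat2, Aldh9a1) 0 were called in either strain; in BL6 their median log2 fold change was 0.14 and in MRL 0.19.

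Of 5 transport genes, 1 rose and 3 fell in BL6, and 2 fell in MRL. Gpc1, a cell surface proteoglycan known for polyamine uptake, fell from a mean of 344 to 150 CPM in BL6 (log2 fold change -1.20, adjusted p 0.000209) and from 344 to 174 CPM in MRL (-0.99, 0.00304). Atp13a2, a lysosomal polyamine exporter, fell in both, by 0.52 (0.00127) and by 0.46 (0.00682), calls that scaling by total counts ended in both strains (0.0621 and 0.0718). Atp13a3, a relative of it, fell in BL6 from 32.4 to 12.6 CPM (-1.36, 0.000105) and not detectably in MRL, from 25.9 to 20.9 CPM (-0.31, 0.24), and the difference between strains in its response did not pass (1.05, 0.153). Slc3a2, part of an amino acid exchanger, rose in BL6 by 0.35 (0.00645), and Slc18b1, a vesicular polyamine transporter, was called there without replicate 2 of operated BL6 (0.50, 0.0154). All these p-values are adjusted ones from edgeR's quasi-likelihood test.

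The hypusine genes use spermidine to modify the translation factor made by Eif5a. Of 3 analysed, 2 rose in BL6, Dohh from a mean of 9.57 to 18.02 CPM (log2 fold change 0.91, adjusted p 0.000437) and Dhps by 0.35 (0.0247), and in MRL Eif5a fell from 224 to 174 CPM (-0.37, 0.0189) by edgeR's quasi-likelihood test. Dhps was not called in a fit of the BL6 samples alone (0.0588) or without replicate 1 of unoperated (0.0712) or replicate 2 (0.0811) or 3 (0.0596) of operated BL6. Eif5a lost its MRL call without replicate 4 of unoperated (0.0526) or replicate 1 (0.0624) or 3 (0.0578) of operated MRL, and without replicate 2 of operated BL6 it was called lower in BL6 (0.0238). Without replicate 4 of operated MRL, Dohh (0.0141) and Dhps (0.0444) were called higher in MRL too, and so was Dohh under scaling by total counts (0.0479).

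The methionine and methylthioadenosine cycle supplies the substrate of Amd1 and recycles methylthioadenosine. Of 8 genes analysed, 4 fell in BL6 and 3 in MRL, and 0 rose, although Mri1 was called higher in BL6 under scaling by total counts (0.32, adjusted p 0.0301). Mat2a, which makes S-adenosylmethionine, fell from a mean of 192 to 127 CPM in BL6 (log2 fold change -0.60, adjusted p 0.00554) and from 254 to 136 CPM in MRL (-0.90, 0.00168) by edgeR's quasi-likelihood test. Mtap, which splits methylthioadenosine, fell by 0.71 (9.86e-05) and by 0.49 (0.00427), and Adi1, a later enzyme of the salvage route, by 0.91 (0.000398) and by 0.77 (0.00384). Mat2b, the partner subunit of Mat2a, fell in BL6 by 0.49 (0.00136) and had -0.28 (0.0518) in MRL, where it was called by DESeq2 (0.0237), with DESeq2's size factors in edgeR (0.0465), in a fit of the MRL samples alone (0.045) and without replicate 2 of operated MRL (0.0382).

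**Figure D4:**
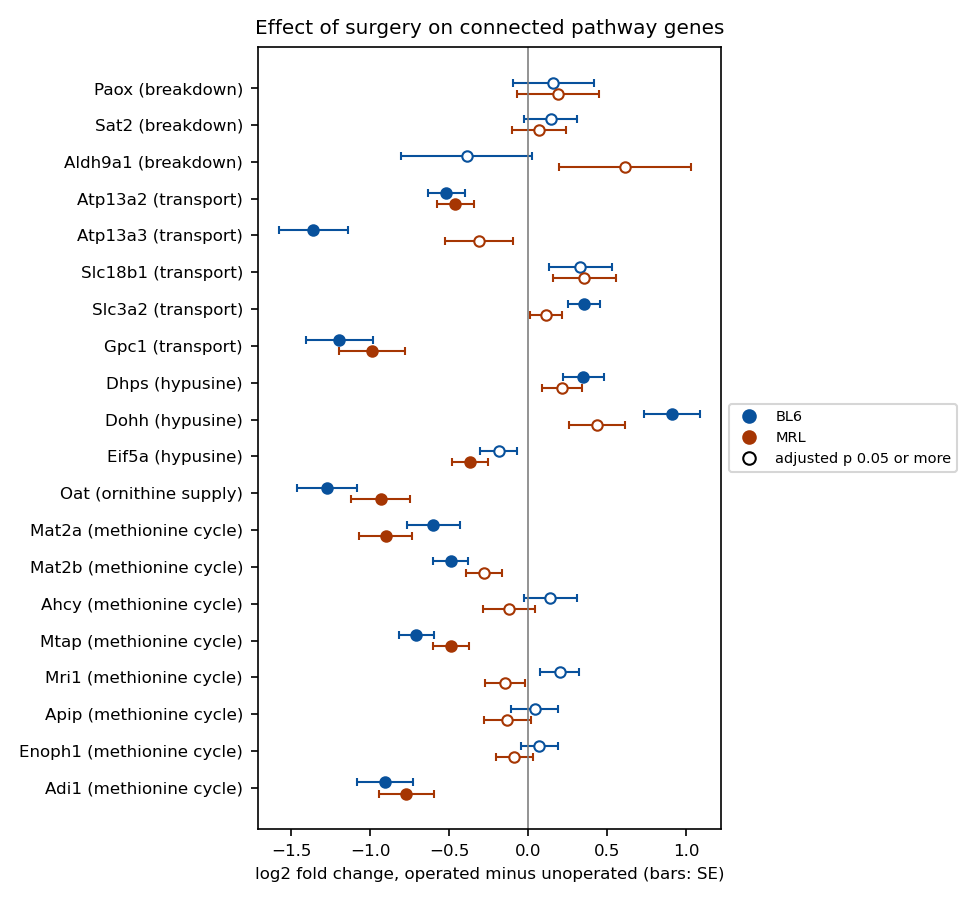
Log2 fold change, operated minus unoperated, in BL6 and MRL for the 20 further pathway genes analysed (points, bars are SE), grouped by list; filled points passed an adjusted p of 0.05 by edgeR's quasi-likelihood test and open circles did not. Oat, Gpc1, Atp13a2, Mat2a, Mtap and Adi1 lie below 0 and are filled in both strains.

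Between strains, Mri1 of the salvage route was lower in MRL, at a log2 difference of -0.49 (adjusted p 0.0195) in unoperated and -0.83 (0.000314) in operated muscle, and Atp13a3 was higher in operated MRL, by 0.73 (0.0382), by edgeR's quasi-likelihood test. The unoperated Mri1 call was lost without replicate 2 (0.0687) or 3 (0.0635) of BL6 or 3 (0.0506) of MRL, and under scaling by total counts (0.0844). The Atp13a3 call was lost without replicate 1, 3 or 4 of operated BL6 or 3 or 4 of operated MRL (0.058 to 0.135), with the replicate block (0.0592) and in a fit of these groups alone (0.0962). The direct test of a different surgery effect called 0 of these 20 genes, and 1 of them, Atp13a3, had an unadjusted p under 0.05.

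The authors' deposited table gives the polyamine genes close values. For Amd1 it has -1.998 in BL6 with a false discovery rate of 0.000624 and -2.03 in MRL, and for Smox -2.30 (0.00112) and -2.26 (0.00236). For Odc1 the authors' deposited table has -0.19 (0.485) in BL6 and -1.40 (0.000365) in MRL, and for Sms -0.58 (0.0385) and -1.01 (0.00297). For Sat1 in MRL the authors' deposited table has 0.57 with a false discovery rate of 0.0101, lower than the adjusted p of 0.0389 found here.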

How the data were processed

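RNA of 16 rotator cuff muscle samples was sequenced by the authors; per the labels' protocols minced muscle was extracted on columns with DNase before Illumina library preparation. The deposited count table gives whole-number counts per gene, a reading of its values. The submitters' processing notes name FastQC, STAR, edgeR and mm10, with no version or role; how reads shared by copies were counted and whether strand was used are not given in the sources used here. The authors also deposited a table with a log2 fold change and a p-value with false discovery rate per gene for 4 comparisons, per the file headers.

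Everything else was computed from the counts with R 4.3.3, edgeR 4.0.16, limma 3.58.1 and DESeq2 1.42.0. TMM factors scaled the counts, filterByExpr (minimum count 10) kept 11709 of 11710 genes, and 1 quasi-likelihood fit with a mean for each group took in all 16 samples. From it came 5 comparisons: surgery in each strain, their difference, and strain in unoperated and in operated samples. Benjamini-Hochberg adjustment covered every gene tested, and calls needed an adjusted p under 0.05. For log2 CPM the prior count was 2. The fit was tested on simulated data.

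Groups and replicate numbers came from the strain and surgery characteristics and the titles. No replicates of a group held counts agreeing within sampling noise, so all were kept. Floors (3 counts) cover counting error only, since no molecular identifiers tell copied reads from separate molecules. Levels per kb divide by the summed exon length in GENCODE M21 (GRCm38), where 11708 of 11710 gene IDs were found. Promoters are from RefSeq on GRCm38.p6.

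All polyamine genes analysed are named, and of the other pathway lists those called in a surgery comparison; Amd-ps4, Mri1 and the uncalled list genes were named after their values were seen. Also named are the 5 genes of at least 5 CPM most correlated with Amd1 and with Smox. Processed pseudogenes of Oaz1, Oaz2 and Sms in GENCODE M21 were not analysed here. The genes and lists were chosen with earlier results of these data known. Alternatives were other scalings, no filter, DESeq2, limma-voom, fits of the groups compared alone, a replicate block and leaving out each sample.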

Additional observations from a re-analysis of the deposited data

Results flagged for a closer look

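In 3 of 36 groups of 4 samples (9 genes, 4 groups) the highest sample lay farther from the others than Dixon's 95% critical value for 4 samples allows; chance alone gives about 1 in 20. Amd1 in operated BL6 replicate 2 was 34.9 CPM, against 7.59 to 10.7 CPM in the other 3. Odc1 in the same sample was 47.0 CPM, against 25.1 to 28.1 CPM. Odc1 in unoperated BL6 replicate 1 was 53.7 CPM, against 32.6 to 33.9 CPM.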

How the results depend on the processing

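The count of polyamine genes called stayed within 1.5 times under every other scaling, filter or test for surgery in BL6, for surgery in MRL and for the strain difference in response; leaving out each sample gave 5 to 8, 2 to 4 (2 without replicate 3 of operated MRL) and 0. Between unoperated strains 1 became 3 with total counts, 2 with DESeq2, 4 with only the groups compared, and 0 to 1 on leaving out samples (0 without replicate 4 of unoperated MRL); between operated strains 0 became 1 (Sms) with total counts and 0 to 1 on leaving out samples (Sms without replicate 2 of operated BL6, Odc1 without replicate 4 of operated MRL). In the unoperated strain comparison the genes gained were Sms and Oaz2 with total counts, Sms with DESeq2, and Sms, Odc1 (adjusted p 0.046) and Srm (0.049) in the fit of those groups alone. Over all genes, the strain difference in response was called for 29, for 250 with DESeq2, 14 with total counts and 2 with the replicate block; the unoperated strain comparison went from 1216 to 2438 and the operated one from 1507 to 574 in fits of the groups compared alone. Total counts turned the 588 higher and 628 lower genes of unoperated MRL into 741 and 313, and 890 and 617 in operated MRL into 994 and 383, moving the median of all genes from 0.01 to 0.15 in the former.

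Amd1 in BL6 ran from -2.87 to -1.86 on leaving out samples, with an adjusted p of at most 0.00221 in edgeR's quasi-likelihood test. The log2 difference of Smox between operated strains, -0.12, became 0.0629 with total counts, 0.0577 with voom and 0.106 with the replicate block. Signs also turned on leaving out samples, where the values ran from -0.10 to 0.99 (Amd1), -0.18 to 0.93 (Smox) and -0.37 to 0.25 (Sms) for the strain difference in response, from -0.0758 to 0.22 for Azin1 between unoperated strains, from -0.44 to 0.66 for Smox and -0.0833 to 0.19 for Srm between operated strains, from -0.0476 to 0.0636 for Oaz2 in MRL, from -0.60 to 0.11 (Aldh9a1), -0.0656 to 0.16 (Apip), -0.0587 to 0.33 (Paox) and -0.0256 to 0.26 (Sat2) in BL6, and from -0.00826 to 0.15 for Sat2 in MRL. The cause was not tested.

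The groups share replicate numbers 1 to 4 in the titles, with no label that pairs them, and deviations of same-numbered samples correlated at -0.47 to 0.11 for surgery in BL6, -0.24 to 0.27 for surgery in MRL, -0.11 to 0.36 between unoperated strains and -0.0958 to 0.45 between operated strains, not above 0.1 for every number in any, so the numbers were not taken to pair samples. With the replicate block 7, 4, 0, 1 and 0 polyamine genes were called in the 5 comparisons, as without it, Amd1 in BL6 was -2.26, and among all results given only the Atp13a3 call between operated strains was lost. The share of Amd2 and the fit of Amd1 and Amd2 as separate rows were not run, because Amd2 was not analysed here. The strain difference in response needs all groups, so it has no fit of the groups compared alone.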
